A study of Rattus norvegicus with 9 samples.

Results

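The Myc, Max and Mxd network was followed in rat liver as 8 genes chosen by name, Myc, Mycn, Max, Mxd1, Mxd3, Mxd4, Mxi1 and Mnt. On the arrays, 8 probes matched 7 of these genes through their RefSeq accessions, out of 41012 probes in all. Mxd4 had no matched probe, and both Mycn probes were above background on none of the 9 arrays, so that 6 genes, each with 1 probe, were tested. Total RNA of the liver was hybridised to Agilent whole rat genome arrays with 1 dye, 1 array per rat and 3 male Wistar rats per group. Controls were neither irradiated nor given the drug. TBI rats received total body irradiation of 6.5 Gy from a 60Co source at 2 Gy/min. HSC + TBI rats received the same irradiation after 3 days of gavage with HSC, the Hong Shan Capsule, a mixture of medicinal herbs. The daily HSC dose stands as 10 g/kg in the description of the series and in the published text on rats treated in this way, and as 30 mg/kg in the sample labels. Livers were taken 24 h after irradiation, and the age of the rats is not given in the sources used here. The comparisons asked what irradiation did to liver transcripts and whether pretreatment with HSC altered that response.

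Myc and its relative Mycn are transcription factors that bind DNA only when paired with Max. The pair recognises the E-box, of which CACGTG is the best known form, and raises the expression of genes for ribosome production, metabolism and cell division. Mxd1, Mxd3, Mxd4, Mxi1 and Mnt also pair with Max at E-boxes but recruit Sin3 and histone deacetylases, which lower transcription, so that the balance between Myc and these partners sets the output of shared targets. In liver, Myc is an early gene of regeneration and of the response to injury, and Mnt is the most widely expressed of the antagonists.

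E-boxes lie in front of some of the network's own genes. The RefSeq promoter table of build GRCr8, which holds 250 bases before and 50 bases after each gene's start, had an entry for 6 of the 8 genes. CACGTG, which reads the same on both strands, was present in the promoters of Max, Mnt and Mxd4 and not in the windows of Mxd1, Mxd3 and Mxi1. Among all promoters in the table, 2148 of 33469 (6.42%) held it. The 3 stretches are shown because they carry the letters that the network's proteins are known to read, written 5′ to 3′ on the strand of the gene with the E-box in capitals.
Max, minus strand, chr6:101395306-101395335: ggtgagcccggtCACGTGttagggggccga
Mnt, plus strand, chr10:60197824-60197853: ccccacccaagcCACGTGtgcgcgcgcgat
Mxd4, plus strand, chr14:80786572-80786601: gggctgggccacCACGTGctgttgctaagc
The first base of the E-box lay 33 bases before the start of Max, 123 bases before the start of Mnt and 197 bases before the start of Mxd4. A match of letters is a description of the sequence, and binding was not measured.

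Before the results, 3 features of the arrays bear on them. Controls shared slide 1, TBI rats slide 2, and HSC + TBI rats were on slides 3 and 4. No slide held rats of different groups, so that every difference between groups below cannot be told apart from a difference between slides. The share of probes above background was 56.6% to 59.3% in controls, 63.6% to 69.5% in TBI rats and 58.7% to 60.5% in HSC + TBI rats, and the part of this difference in the results below was not tested. The tissue was liver by its markers, since all 8 hepatocyte genes (such as Alb and Ttr) were above background on all 9 arrays, with a summed log2 signal of 20.3 to 20.5 in every rat. In whole tissue, fewer cells of a type and less RNA per cell cannot be told apart.

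After TBI, 2 of the 6 tested members were higher than in controls, Myc and Mnt, the one an activator and the other its antagonist at the same sites. Max, Mxd1, Mxd3 and Mxi1 were not called in any comparison. A call needed a change of at least 1.5-fold and, in limma's fit across all tested probes, an adjusted p (Benjamini-Hochberg) under 0.05. By this rule 7.25% of the 25369 tested probes were called between TBI and control rats, 3.23% between HSC + TBI and control rats and 0.796% between HSC + TBI and TBI rats. Among the members 2 of 6 were called in the first comparison and 0 of 6 in each of the other two, where 1 member each had an unadjusted p under 0.05 in limma (Myc against control and Mnt against TBI).

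**Figure D1:**
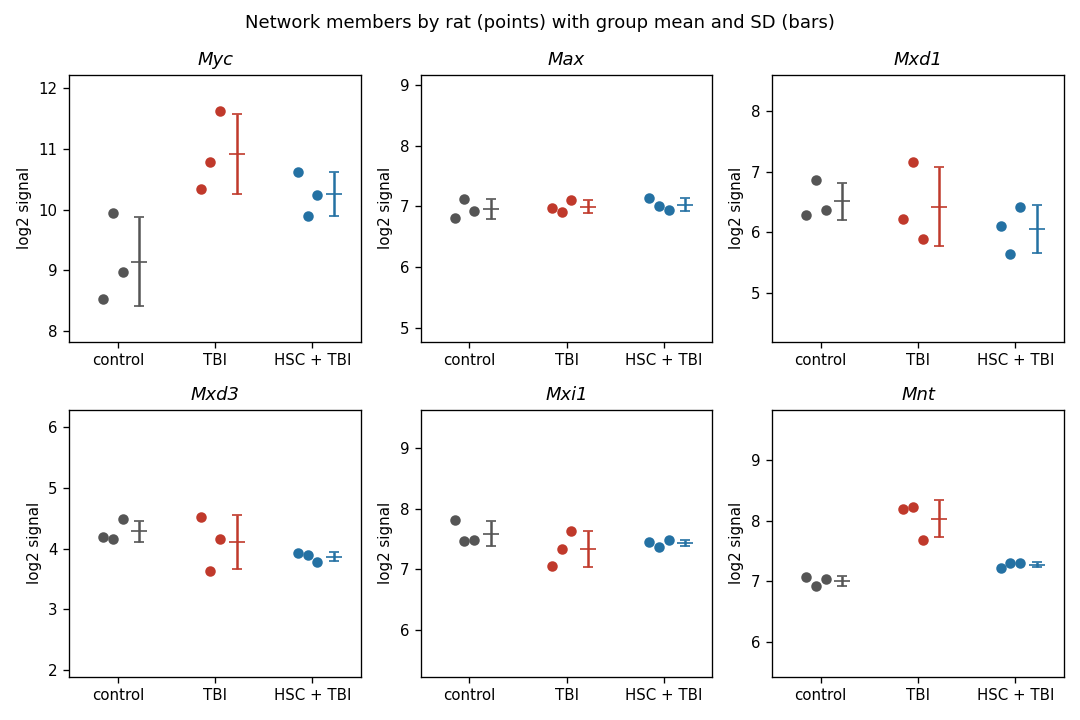
Log2 signal (vertical axis) of the 6 tested network members in each rat, by group; points are rats and bars the group mean with its SD, and every panel spans the same range of log2 units. Myc and Mnt lay higher in all TBI rats than in all controls, while the groups of Max, Mxd1 and Mxi1 overlapped.

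Myc, the activating partner of Max, was at log2 signals of 8.53, 9.94 and 8.97 in controls, 10.34, 10.79 and 11.63 in TBI rats, and 10.62, 9.90 and 10.24 in HSC + TBI rats. All TBI rats were above all controls, while the lowest HSC + TBI rat was just under control 2, the highest of the controls. The group means were 9.15 ± 0.73, 10.92 ± 0.65 and 10.25 ± 0.36 (SD, n = 3 each). After TBI, Myc was 3.42-fold higher than in controls, a log2 difference of 1.77 with a 95% interval of 0.82 to 2.73 (limma, SE 0.42, adjusted p = 0.0383). In HSC + TBI rats the log2 difference from controls was 1.11, with an interval of 0.15 to 2.07, and did not pass the test (limma, adjusted p = 0.195). With slide as a random block this second difference was 1.15 and was called (limma, adjusted p = 0.0209), but the fitted slide correlation was below 0 (-0.327), which narrows the errors of all probes, and 10.1% of them were called in that fit. Set against TBI rats, HSC + TBI rats differed by -0.67, with an interval of -1.62 to 0.29 (limma, adjusted p = 0.478), and without TBI 3 by -0.31 (adjusted p = 0.735). The mean of HSC + TBI rats was between the other means, while its rats overlapped with both groups, HSC + TBI 1 being above TBI 1. Neither an unchanged level nor a fall of over 1 log2 unit relative to TBI is outside the interval. Each comparison has 3 rats against 3, for which an exact two-sided permutation test of a single gene cannot go below p = 0.1, so that the tests here rest on limma's shared estimate of the spread.

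The call for Myc after TBI depended on single rats. The difference stayed positive, between 1.42 and 2.17, whichever rat was left out. The adjusted p passed 0.05 without control 1 (1.46, adjusted p = 0.104), control 3 (1.68, adjusted p = 0.121), TBI 2 (1.84, adjusted p = 0.0831) or TBI 3 (1.42, adjusted p = 0.0697). It also passed 0.05 without HSC + TBI 1, 2 or 3 (adjusted p = 0.0546, 0.0503 and 0.0607), which enter only through the shared spread. The call was kept without control 2, where the difference rose to 2.17, and without TBI 1, where it was 2.06.

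Repeat spots show the noise of printing and scanning within 1 array only, since they share 1 labelling and hybridisation. The Myc probe was printed 10 times on each array, all 10 spots were above background on every array, and 7 to 9 of them were used after outlier spots were left out. The SD between spots of 1 array was 0.02 to 0.07 log2 units, with a median of 0.05, beside a median of 0.07 for the 192 tested probes printed 10 times. In control 1 the spots ran from 8.45 to 8.63, and in control 2 from 9.88 to 10.01. The ranges of spots did not overlap between any of the 3 controls, nor between any of the 3 TBI rats.

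**Figure D2:**
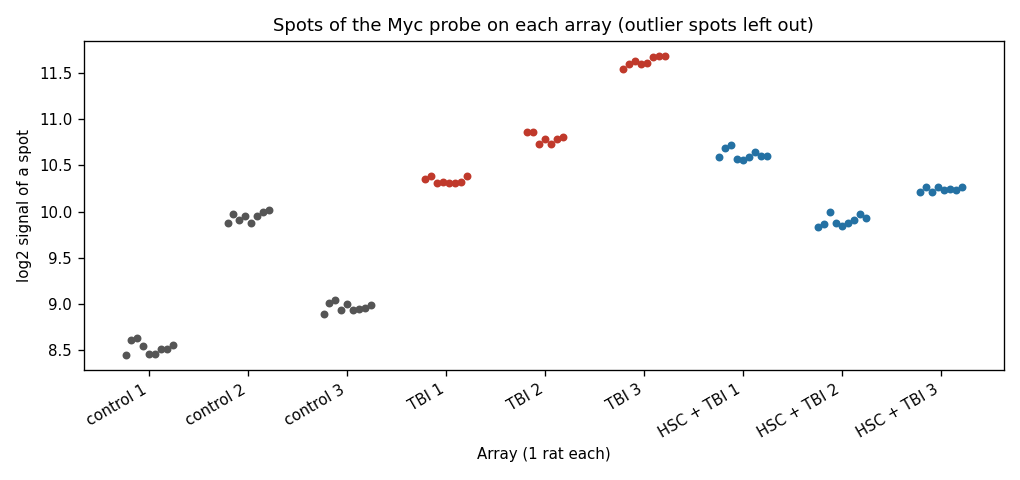
Log2 signal of each used spot of the Myc probe (vertical axis) on the 9 arrays (horizontal axis, 1 rat each), coloured by group. Spots of 1 array lie within 0.02 to 0.07 log2 units (SD), while control 2 sits above the other two controls, at 9.94.

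Mnt, the antagonist of Myc that pairs with Max, was at 7.07, 6.92 and 7.04 in controls, 8.20, 8.23 and 7.68 in TBI rats, and 7.22, 7.30 and 7.31 in HSC + TBI rats. No 2 groups overlapped, with controls lowest, HSC + TBI rats next and TBI rats highest. Group means were 7.01 ± 0.08, 8.04 ± 0.31 and 7.28 ± 0.05 (SD, n = 3 each). After TBI, Mnt was 2.04-fold higher than in controls, a log2 difference of 1.03 with a 95% interval of 0.67 to 1.38 (limma, SE 0.16, adjusted p = 0.00751). This call held with any 1 of the 9 rats left out, with differences of 0.93 to 1.20. With normexp background correction the difference was 0.58, just short of 1.5-fold, at an adjusted p of 0.00748 in limma.

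In HSC + TBI rats Mnt was 0.27 log2 units from the control mean, with an interval of -0.09 to 0.62 (limma, adjusted p = 0.391). Directly against TBI rats the difference was -0.76, with an interval of -1.12 to -0.40 and all 3 HSC + TBI rats below all 3 TBI rats (limma, unadjusted p = 0.00102, adjusted p = 0.0754). It therefore missed the threshold over all probes, although its own interval lay below 0. Without TBI 3, the lowest of the TBI rats, the difference was -0.94 and was called (limma, adjusted p = 0.0116), and with any other rat left out the adjusted p was 0.0807 to 0.223. With slide as a random block it was called (limma, adjusted p = 0.00392), in a fit that called 8.89% of all probes. Groups without overlap were common, at 28.8% of tested probes between TBI and control rats, 31.7% between HSC + TBI and control rats and 21.4% between HSC + TBI and TBI rats. Among the 6 members the counts were 2 (Myc and Mnt), 2 (Mnt and Mxd3) and 1 (Mnt).

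Max, the partner that the other members share, was at 6.81, 7.13 and 6.93 in controls, 6.97, 6.90 and 7.11 in TBI rats, and 7.14, 7.00 and 6.94 in HSC + TBI rats. The 3 groups overlapped fully. Its log2 differences were 0.04 after TBI (95% interval -0.25 to 0.32), 0.07 in HSC + TBI rats against controls (-0.21 to 0.36) and 0.03 between the irradiated groups (-0.25 to 0.32), with adjusted p of 0.874, 0.802 and 0.916 in limma. These intervals leave out a change of 1.5-fold in either direction.

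Mxd1, an antagonist known from differentiating and white blood cells, was at 6.29, 6.87 and 6.37 in controls, 6.22, 7.16 and 5.90 in TBI rats, and 6.10, 5.64 and 6.43 in HSC + TBI rats. The groups overlapped, and the highest rats of the first 2 groups were control 2 and TBI 2. The log2 differences were -0.09 after TBI (95% interval -0.86 to 0.68), -0.46 in HSC + TBI rats against controls (-1.23 to 0.31) and -0.37 between the irradiated groups (-1.14 to 0.40), with adjusted p of 0.894, 0.508 and 0.626 in limma. Control 2 and TBI 2 also had the highest summed log2 signal of 6 Kupffer cell and macrophage markers (Cd68, Cd163, Marco, Clec4f, Csf1r and Adgre1). That sum was 15.5 to 16.0 in controls, 15.5 to 16.4 in TBI rats and 15.0 to 15.1 in HSC + TBI rats, and all 6 markers were above background on every array. Signals were added before the log2 was taken, so that the brightest marker, Clec4f (mean 15.47 in controls), weighs most. Of the 6 markers 5 were higher after TBI, 0 in HSC + TBI rats against controls and 0 between the irradiated groups. Their median log2 differences were 0.55, -0.55 and -1.14, and 0 were called in any comparison, beside 7.79%, 3.89% and 0.792% of all tested genes. An unadjusted p under 0.05 in limma was reached by 1, 2 and 5 of the 6, beside 26.1%, 21.9% and 15% of all tested genes. The rats did not overlap for 0, 3 and 4 of the 6, each time lower, beside 28.8%, 31.7% and 21.4% of tested probes. The part of these markers in the values of Mxd1, and in the lower Mnt and Myc of HSC + TBI than of TBI rats, was not tested.

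Mxi1, an antagonist named for its interaction with Max, was at 7.82, 7.47 and 7.48 in controls, 7.05, 7.34 and 7.64 in TBI rats, and 7.45, 7.38 and 7.48 in HSC + TBI rats. The groups overlapped. Its log2 differences were -0.25 after TBI (95% interval -0.63 to 0.14), -0.15 in HSC + TBI rats against controls (-0.54 to 0.23) and 0.09 between the irradiated groups (-0.29 to 0.48), with adjusted p of 0.393, 0.669 and 0.817 in limma.

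Mxd3, an antagonist linked to dividing cells, was dim. It was at 4.20, 4.17 and 4.49 in controls, 4.52, 3.63 and 4.16 in TBI rats, and 3.93, 3.91 and 3.78 in HSC + TBI rats. The probe was above background in 2 of 3 controls, 3 of 3 TBI rats and 0 of 3 HSC + TBI rats, so that it entered the test only through the TBI rats. All HSC + TBI rats were below all controls, 1.33-fold lower by the mean signals. This log2 difference of -0.41 (95% interval -0.90 to 0.07) did not pass the test (limma, adjusted p = 0.327). Over the alternatives run it lay between -0.50 and -0.0082. The difference after TBI was -0.18 (95% interval -0.67 to 0.31; limma, adjusted p = 0.636). Mycn, the relative of Myc best known from embryonic and neural cells, was not well above background with either of its 2 probes in any rat, and no ratio is given for it.

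**Figure D3:**
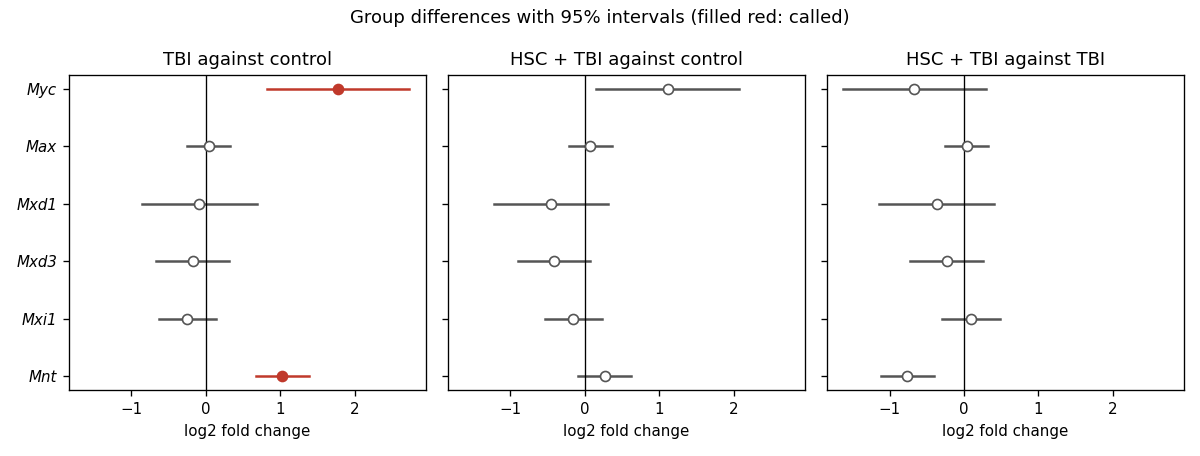
Log2 fold change (horizontal axis) of the 6 tested members in the 3 comparisons, with limma's 95% intervals as lines; filled red points passed the call rule. Myc and Mnt after TBI are the only called points among these 18, and the interval of Mnt between HSC + TBI and TBI rats lies below 0 and that of Myc in HSC + TBI rats against controls above 0, neither of them called.

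Across the 9 arrays, the genes closest to Myc were ranked by Pearson's r over 8529 named genes above background on all arrays, as a description with 9 points that share the group means. The 4 highest were Zfp36l1 (r = 0.963), a protein that promotes messenger RNA decay, Chac1 (0.961), an enzyme that degrades glutathione, Srpx (0.960), and Ppp1r15a (0.960), which directs a phosphatase to the translation factor eIF2. Chac1 was at 6.0, 8.66 and 6.79 in controls, 10.48, 11.10 and 11.87 in TBI rats, and 11.48, 9.01 and 10.51 in HSC + TBI rats. These genes were picked for their likeness to Myc on the same arrays, so that a shared order of rats and a difference after TBI follow from the choice, and no test is given. After TBI the log2 differences were 4.0 for Chac1, 1.75 for Ppp1r15a, 0.78 for Zfp36l1 and 0.42 for Srpx. The lowest r were those of Nudt16 (-0.963), Hmgn2 (-0.948) and Plp2 (-0.946). Among the members, r with Myc was 0.61 for Max, 0.58 for Mnt, -0.05 for Mxd1 and -0.31 for Mxi1. Within groups, after each group's mean was taken off, r with Myc was 0.86 for Max, -0.76 for Mnt, 0.15 for Mxd1 and 0.25 for Mxi1. The likeness of the called genes Myc and Mnt over all 9 arrays thus lies between groups and not between rats of a group.

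The other genes of the pathway were read by lists. Of 9601 tested genes, each by its brightest probe, 7.79% were called after TBI, 3.89% in HSC + TBI rats against controls and 0.792% between the irradiated groups. Of 10 genes for coactivators that Myc recruits and for Miz1, the partner through which Myc represses (Zbtb17), 0 of 10 tested were called in any comparison, with 1 at an unadjusted p under 0.05 in limma after TBI (Ruvbl2, -0.29, adjusted p = 0.174) and 0 in either other comparison. Its values were 9.01, 9.24 and 9.37 in controls and 8.98, 8.88 and 8.90 in TBI rats, which did not overlap. Kat2a, the histone acetyltransferase GCN5, had the widest log2 difference of these genes in HSC + TBI rats against controls, 0.60, which came from HSC + TBI 1 at 6.93 beside 5.48 and 5.17 (limma, adjusted p = 0.490). The relatives Mlx and Mlxipl, which form the glucose-sensing branch of the network, were the 2 of 5 extended members with a probe, and their log2 differences of 0.11 and -0.25 after TBI were not called (adjusted p = 0.599 and 0.306).

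Of the Sin3 and NCoR corepressor genes, 6 of 9 were tested and 1 was called, the histone-binding subunit Rbbp4. Rbbp4 was at 12.32, 12.41 and 12.19 in controls, 11.92, 11.74 and 11.50 in TBI rats, and 11.96, 11.96 and 11.98 in HSC + TBI rats. Both irradiated groups were below all controls. It fell by 0.59 on the log2 scale after TBI (limma, adjusted p = 0.0311), close to the 1.5-fold limit, while the difference of -0.34 in HSC + TBI rats was not called (adjusted p = 0.201). Leaving out control 1, 2 or 3, TBI 2 or 3, or HSC + TBI 1 or 3 ended the call after TBI, with differences of -0.65 to -0.48 and adjusted p up to 0.0951, and it fell short of 1.5-fold with the 75th percentile shift, with normexp correction and in the authors' normalized values (-0.52, -0.55 and -0.57).

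Of the genes that control the stability of the Myc protein, 7 of 10 were tested and 1 was called, Usp36, a nucleolar deubiquitinase that protects Myc from breakdown. Usp36 was at 8.64, 8.64 and 8.44 in controls, 9.33, 9.31 and 9.15 in TBI rats, and 9.20, 9.06 and 8.75 in HSC + TBI rats. Both irradiated groups were above all controls. It rose by 0.69 after TBI (limma, adjusted p = 0.0242), and the difference of 0.43 in HSC + TBI rats was not called (adjusted p = 0.146). Leaving out control 1, 2 or 3 or TBI 1 or 2 ended the call, with adjusted p of 0.0553 to 0.0874 and differences of 0.62 to 0.72, and with normexp correction, where the difference was 0.54. Skp2 and Btrc, ubiquitin ligase subunits, Gsk3b, Aurka and Stub1 were not called in any comparison.

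Among textbook targets that Myc activates, 36 of 40 were tested, and 1 was called higher and 1 lower after TBI, beside 7.79% of all tested genes called in either direction. The same counts held in HSC + TBI rats against controls, beside 3.89%, and 0 of 36 were called between the irradiated groups, beside 0.792%. An unadjusted p under 0.05 in limma was reached by 11, 14 and 4 of the 36 in these comparisons, beside 26.1%, 21.9% and 15% of all tested genes. Both comparisons against controls share the 3 control rats, so that their values stand side by side only. Tfrc, the transferrin receptor that brings iron into cells, was at 9.83, 9.88 and 10.02 in controls, 11.004, 11.148 and 11.147 in TBI rats, and 11.34, 11.46 and 11.35 in HSC + TBI rats. Both irradiated groups were above all controls and did not overlap with each other. Its log2 differences from controls were 1.19 after TBI and 1.47 after HSC + TBI (limma, adjusted p = 8.84e-04 and 3.46e-04). E2f1, the transcription factor of entry into S phase, was at 6.84, 6.87 and 7.07 in controls, 4.25, 4.58 and 4.86 in TBI rats, and 4.52, 4.84 and 4.92 in HSC + TBI rats. All irradiated rats were at or under 4.92 and all controls at or above 6.84. E2f1 fell by 2.36 after TBI and by 2.17 after HSC + TBI (limma, adjusted p = 3.75e-04 and 7.27e-04).

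The rest of the activated targets differed by less than 1.5-fold or missed the test. Over all 36, Tfrc and E2f1 included, the median log2 difference was 0.14 after TBI, 0.23 in HSC + TBI rats against controls and 0.11 between the irradiated groups. Over all tested genes it was 0.01, 0.02 and 0.02. Of the 36, 25, 26 and 31 were above 0 in these comparisons. After TBI, 10 of the 36 were higher in all TBI rats than in all controls and 2 lower, beside 13.3% and 15.6% of all tested probes, a share counted over probes and not over genes. In HSC + TBI rats 16 of the 36 were higher than in all controls and 2 lower, beside 18% and 13.7% of probes. These shares are descriptions of a list of small differences, since only Tfrc and E2f1 passed the call rule.

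Several of the named genes work in ribosome production. Polr1b, a subunit of RNA polymerase I, was at 6.50, 6.51 and 6.56 in controls, 6.98, 6.52 and 6.48 in TBI rats, and 7.09, 7.14 and 6.97 in HSC + TBI rats. HSC + TBI rats were above all controls, while only TBI 1 was. Its log2 difference from controls was 0.54 in HSC + TBI rats and 0.14 in TBI rats (limma, adjusted p = 0.0873 and 0.597). Mybbp1a, a nucleolar protein whose promoter holds 2 E-boxes, showed 0.49 and 0.15 (adjusted p = 0.0693 and 0.471), and Wdr43, a factor in making the small ribosomal subunit, 0.67 and 0.14 (adjusted p = 0.175 and 0.757). Ppan, a factor in making the large subunit, differed from controls by 0.50 and 0.48 (adjusted p = 0.225 and 0.187). Nme1, a nucleoside diphosphate kinase, was at 12.91, 12.73 and 12.74 in controls, 13.50, 13.37 and 13.05 in TBI rats, and 13.22, 13.42 and 13.38 in HSC + TBI rats. Every irradiated rat was above every control. Its log2 differences of 0.51 and 0.55 were not called (limma, adjusted p = 0.0626 and 0.0770), and it was called after TBI without TBI 3 (0.64, adjusted p = 0.0188) and in HSC + TBI rats with the 75th percentile shift (0.71, adjusted p = 0.0461). The folate carrier Slc19a1 had a difference of -0.40 after TBI and of -0.02 in HSC + TBI rats, neither of them called (limma, adjusted p = 0.147 and 0.950).

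Of 12 targets that Myc is known to repress, 9 were tested. Cdkn1a, the cell cycle inhibitor p21, which is also a main target of p53, was at 7.98, 8.22 and 8.81 in controls, 13.44, 13.64 and 14.04 in TBI rats, and 13.56, 13.09 and 13.00 in HSC + TBI rats. The irradiated groups overlapped with each other, at 13.00 or more, and lay above all controls, at 8.81 or less. It rose by 5.37 after TBI and by 4.88 after HSC + TBI (limma, adjusted p = 3.48e-05 and 8.93e-05), against the direction the list's name gives, and the list's other 8 genes were not called. Ndrg1, a stress gene that Myc represses, was at 5.41, 5.26 and 5.21 in controls, 5.20, 6.09 and 6.41 in TBI rats, and 5.23, 4.91 and 4.95 in HSC + TBI rats. TBI 1 lay with the controls and the other two TBI rats above them. Its difference of 0.61 after TBI was not called (limma, adjusted p = 0.210), and it was called without TBI 1 (0.96, adjusted p = 0.0158). Between HSC + TBI and TBI rats Ndrg1 differed by -0.87, which was not called (adjusted p = 0.181), and was called without TBI 1 (-1.22, adjusted p = 0.0118). With slide as a random block the difference between the irradiated groups and that after TBI were both called (limma, adjusted p = 0.0170 and 0.00884). That fit called 8.89% and 17.8% of all probes in these comparisons, because its slide correlation was below 0. It cannot separate slide from group. Cebpa, the hepatocyte differentiation factor, was 0.42 below controls after TBI (adjusted p = 0.154) and was called without TBI 1 (-0.60, adjusted p = 0.0392). The list's median log2 difference was -0.18 after TBI, -0.29 in HSC + TBI rats and -0.17 between the irradiated groups.

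**Figure D4:**
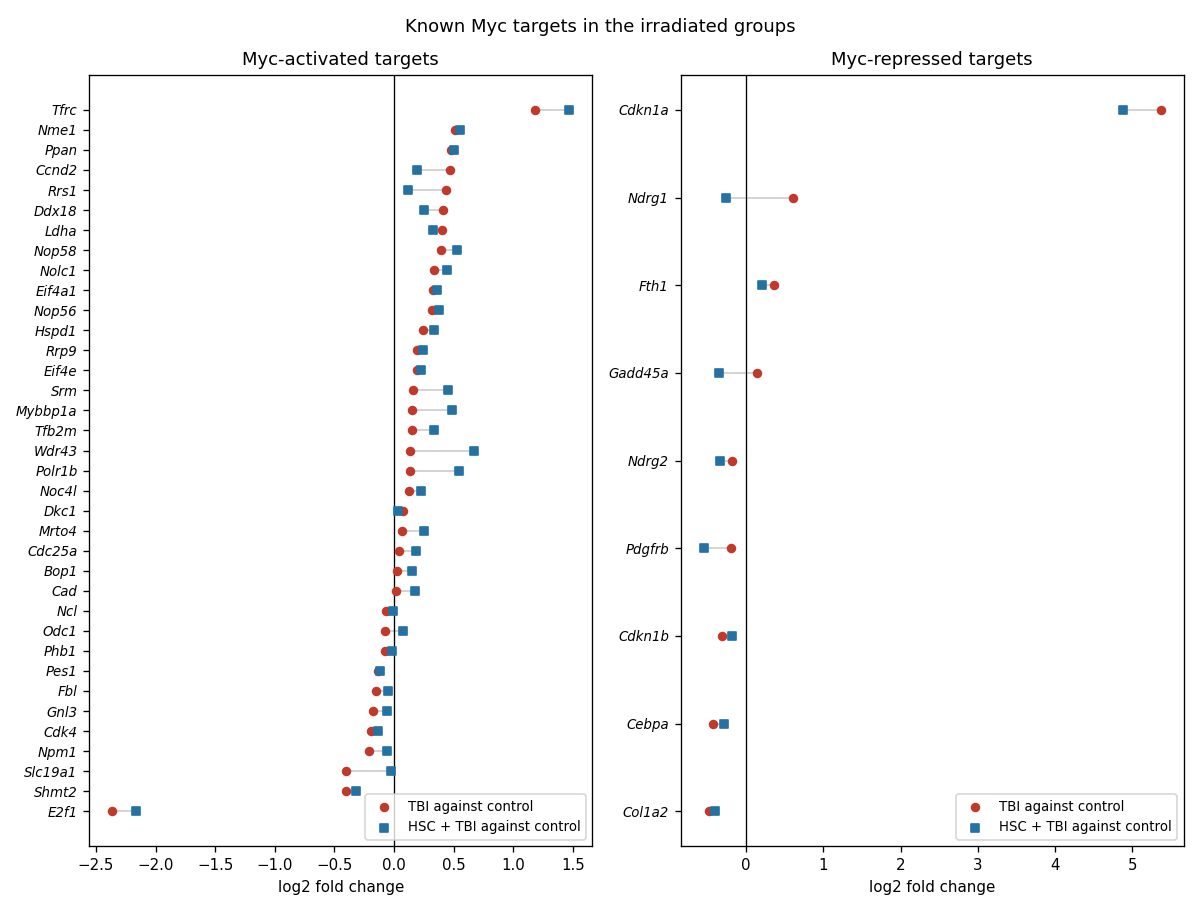
Log2 fold change (horizontal axis) of the 36 tested Myc-activated and 9 tested Myc-repressed targets, after TBI (red circles) and HSC + TBI (blue squares) against the same 3 controls; grey lines join the points of a gene. Tfrc and Cdkn1a lie to the right and E2f1 to the left of the others in both groups, and the remaining genes lie at most 0.67 log2 units from 0.

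The E-box was counted in the promoters of the same lists. CACGTG was present in 13 of the 35 activated targets with a promoter entry (37.1%) and in 0 of 8 repressed targets, beside 6.42% of all promoters. Of the targets called here, Tfrc and Cdkn1a had an entry without the letters, and E2f1 had no entry. These are counts of letters in a fixed window, and no match says only that the letters are not in it.

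The summed signal of lymphocyte markers was lower in the irradiated rats, as a measure of the other cells in the tissue. Signals were added before the log2 was taken, so that the brightest marker, Cd3d (mean 8.66 in controls), weighs most. Lck went the other way after TBI, at a mean of 5.14 in TBI rats and 4.59 in controls. Of the 5 tested markers, it was the only 1 that was higher after TBI. The summed log2 signal over 7 lymphocyte genes was 8.98 to 9.35 in controls, 7.89 to 8.81 in TBI rats and 8.17 to 8.59 in HSC + TBI rats. Cd2 and Cd79b were above background in 3 of 3 controls and in 0 of 3 TBI rats, and in HSC + TBI rats Cd2 was in 1 of 3 and Cd79b in 0 of 3. Both entered the test only through the controls, where they were high, and no test is given for them. The part of this difference in E2f1 and in the dim Mxd3, both genes of dividing cells, was not tested.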

How the data were processed

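Livers of 9 male Wistar rats, 3 per group by the sample labels, were measured on Agilent one-colour 4x44K whole rat genome arrays. The scanner files deposited by the authors (Feature Extraction 10.7.3.1 per the file headers) hold background-subtracted signal intensities for each spot, not yet normalized between arrays, and a value table holds the authors' log2 values after quantile normalization. Here the processed intensities of 43379 spots were floored at 1, log2 transformed, quantile normalized over the 9 arrays after outlier spots were left out, and averaged per probe. A probe was above background where more than 0.5 of its spots were, and was tested where this held for every rat of any 1 group (25369 of 41012 probes). The number of arrays limits the precision. Quantile normalization assumes like distributions in all groups, so that changes are relative to the rest of the transcripts.

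One limma fit (3.58.1, R 4.3.3) of the 3 group means gave all tests, with Benjamini-Hochberg adjustment over all tested probes. Probes were named through RefSeq accessions (16968 of 41012), with assembly GRCr8, and a gene stood for by its brightest probe. All members were reported. In every other list, called genes and up to 4 genes with the largest differences per comparison were named, and for the 2 lists of Myc targets the named genes were followed in all 3 comparisons. A few of these genes are not reported here. The members, lists and tests were chosen with earlier results of these data known. Alternatives were the authors' values, a 75th percentile shift, normexp correction (offset 50), other probe filters, outlier spots kept, only the 2 groups compared, the methods' t-test, no minimum fold, any probe of a gene, the replicate number as a block, slide as a random block, and each rat left out. The methods do not say whether that t-test assumed equal variances. An equal-variance version was run first, and unequal variances were kept because the counts over all probes then came nearer to those of earlier analyses of these data. Both are given. The scripts were tested on simulated data.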

Additional observations from a re-analysis of the deposited data

How the results depend on the processing

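The count of network members called after TBI was 2, and 1 with normexp background correction (Mnt fell short of 1.5-fold), with no filter on dim probes, with only the 2 groups compared in the fit and with the replicate block (Myc missed the adjusted p in these 3). It was 0 by the methods' t-test after adjustment, with unequal or equal variances, and 1 to 2 with each rat left out. Against controls the count in HSC + TBI rats was 0, also with each rat left out, and 1 with slide as a random block (Myc). In the direct comparison of the irradiated groups it was 0, and 1 with slide as a random block, by the methods' t-test without adjustment with either variance, and 0 to 1 with each rat left out, each time Mnt. The slide correlation was -0.327, below 0, and such a block narrows the errors: calls over all probes rose from 7.25% to 17.8% after TBI, from 3.23% to 10.1% in HSC + TBI rats against controls and from 0.796% to 8.89% between the irradiated groups. Equal variances in that t-test, the version run first, called 2572 probes after TBI against 2122 with unequal ones, and 145 against 7 after adjustment. The choice between these versions was made after their counts had been seen. The direction of small uncalled differences changed in places. With normexp correction Max was -0.0058 and Mxd3 0.0054 after TBI, and between the irradiated groups Mlx was -0.0074 and E2f1 -0.030. Mlx was -0.0027 there with slide as a random block. With each rat left out, the differences after TBI ran from -0.035 to 0.12 for Max, -0.45 to 0.18 for Mxd1, -0.39 to 0.057 for Mxd3, -0.30 to 0.68 for Gadd45a and -0.022 to 0.23 for Polr1b. In HSC + TBI rats against controls they ran from -0.00087 to 0.16 for Max, -0.79 to 0.051 for Gadd45a and -0.068 to 0.031 for Slc19a1. Between the irradiated groups they ran from -0.021 to 0.093 for Max, -0.051 to 0.24 for Mxi1, -0.075 to 0.063 for Mlx, -0.019 to 0.24 for Col1a2, -0.17 to 0.25 for Ppan and -0.092 to 0.13 for Nme1. Myc and Mnt kept their direction in every alternative run. Same-numbered rats correlated at -0.14 to 0.19 over 9 pairs of arrays, and rats of unlike number at -0.12 to 0.14 over 18 pairs, so that the numbers were not taken to pair the rats. Between control and TBI rats alone, the same-numbered pairs were at 0.191, 0.117 and 0.0977, each above the 6 unlike pairs (-0.121 to 0.0171). Group means were taken off first, so that unlike pairs fall where same-numbered pairs rise. The other pairs of groups did not show this, with same-numbered TBI and HSC + TBI rats at -0.144, -0.0160 and -0.0306. It is at most a hint of pairing, and the replicate block ended the call of Myc after TBI (limma, adjusted p = 0.0668). The 75th percentile shift changed the share of higher calls between HSC + TBI and TBI rats over all probes from 29.2% to 13.7%. The cause of each other change was not tested. Mxd3 and Mycn are limited by signal over background.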

Other observations

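The summed log2 signals of the remaining cell type markers moved as follows. Each sum adds signals before the log2 is taken, so that its brightest gene weighs most. Stellate cell markers (4 genes) were at 11.6 to 11.7 in controls, 11.2 to 11.4 in TBI rats and 11.4 to 11.6 in HSC + TBI rats. Lrat, the brightest of them, was 0.63 lower after TBI on the log2 scale (limma, adjusted p = 0.0237). Des and Col1a1 differed by -0.03 and 0.01, and Rgs5 was 0.31 higher, none of them called. Endothelial markers (4 genes) were at 13.6 to 13.9 in controls, 14.01 to 14.31 in TBI rats and 13.90 to 14.05 in HSC + TBI rats. Kdr, the brightest of them, differed by 0.33 after TBI, Pecam1 by 0.12 and Tek by -0.23, none of them called. Lyve1 differed by 0.53 (limma, adjusted p = 0.0469), short of 1.5-fold. Bile duct markers (2 genes) were at 8.59 to 9.01 in controls, 8.41 to 9.32 in TBI rats and 8.73 to 8.89 in HSC + TBI rats. Krt19 and Epcam differed by 0.46 and -0.34 after TBI, neither of them called. All of these markers were above background on all 9 arrays, and their part in the values of the network was not tested.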
